A study of Mus musculus with 9 samples.

Results

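The genes described here are 76 transcripts of MC38 cells, a mouse colon carcinoma line, that were abundant in control cells and nearly gone after treatment with Cadict. They were selected on measured values among the 16509 genes of the deposited table. A gene was taken when its mean size-factor count (a read count divided by 1 scaling factor per library) was at least 200 in the 3 control libraries and when log2((Cadict mean + 1)/(control mean + 1)) was at most -3.5. Of the 8441 genes at that control level, 81 met the ratio limit, and 5 zinc finger, Klf and Exosc genes were left out by name. Hps6 and Jrk headed the remaining 76.

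The study sequenced mRNA from MC38 cells in 3 groups of 3 libraries each. Control cells (Ctrl) were labelled DMSO, whereas the study's own text names PBS. Cu-Cys cells received copper together with cystine. The study also describes a cystine copper copolymer with coordinated copper, without saying whether these cells received that form. Cadict cells received a nanoparticle in which copper and cystine are coordinated, carrying glucose oxidase (GOx), which consumes glucose, and GE11, a peptide that binds the EGF receptor. The table names the last group CCGE, and its match to Cadict was inferred from the components Cu-Cys, GOx and GE11. No dose or time for these libraries was given in the sources used here. The study's methods describe independent repeats of its cell culture work in general and use n for biological replicates. Its legends give n = 3 for the RNA-seq, without saying how the replicates of these libraries were grown. Where they shared a culture, the p-values would measure technical spread only. All 9 libraries come from 1 cell line. In such bulk samples, fewer cells of a type and less RNA per cell cannot be told apart.

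The libraries were alike in depth, with total counts of 17905769 to 18293060, and unlike in composition. The deposited size factors were 1.31 to 1.33 in Ctrl, 1.21 to 1.23 in Cu-Cys and 0.617 to 0.637 in Cadict, and the 100 most abundant genes took 17.2% to 17.4%, 17.9% to 18.2% and 29.8% to 31.1% of the counts. Replicates differed beyond sampling noise in every group (chi-square per degree of freedom 1.88 to 23.1), most where Cadict replicate 2 was involved. Against its label as a carcinoma line, the culture showed little of an epithelial profile. Of 6 epithelial markers in the table, 2 reached 1 FPKM (fragments scaled by transcript length and depth) in any library, and their summed level was 2.52 to 3.65 FPKM in Ctrl, 2.22 to 2.49 in Cu-Cys and 9.15 to 9.75 in Cadict, with Epcam at 0 in 8 of 9 libraries. The 4 mesenchymal markers summed to 1876 to 1922, 1739 to 1832 and 839 to 966 FPKM. Nearly all of this sum was Vim, and under the TMM scaling of the tests Vim had log2 fold changes of 0.03 with Cu-Cys and 0.0024 with Cadict (edgeR adjusted p = 0.686 and 0.970). None of the leukocyte and endothelial markers reached 1 FPKM, and 1 red cell marker did. The part of these marker levels and of Cadict replicate 2 in the values below was not tested beyond leaving that library out.

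An mRNA's level is set by how fast it is made and how fast it is removed, and when synthesis stops, transcripts with short lifetimes fade first. Genes that lack introns need no splicing, and many of them encode regulators, receptors or proteins of the cell surface. The transcripts described here span such regulators and structural products such as collagen.

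Genes of 1 exon recur throughout the set, and the sequence just before the start of 4 of these is shown for that reason. Of the 8 members with the lowest ratio, Hps6 and Cd248 have 1 exon. The median share of the Ctrl mean left with Cadict was 5.86% in members with 1 coding exon and 6.77% in those with more. The 4 are the single-exon members with the lowest ratio that have an entry in the RefSeq promoter table (GRCm38.p6). Each line gives the 150 bases before the start that RefSeq annotates, from 5′ to 3′ on the gene's strand, with promoter motifs found on either strand in capitals. The first motif searched was the GC box, spelled GGGCGG, the binding letters of Sp1-type factors. A second was the CCAAT box, matched by those letters themselves. The last was the TATA box, spelled TATAAA, which places the start of transcription in some genes. The 4 stretches lie at chr19:46003328-46003477 (+ strand) for Hps6, chr15:79028062-79028211 (+) for H1f0, chr13:60177536-60177685 (-) for Gas1 and chr16:30599573-30599722 (+) for Fam43a. The GENCODE M21 transcripts used for gene structure below start at 46003508, 79028450, 60176941 and 30599723. Only that of Fam43a begins right after its stretch, and the others begin further downstream, so the start is uncertain for these.
Hps6: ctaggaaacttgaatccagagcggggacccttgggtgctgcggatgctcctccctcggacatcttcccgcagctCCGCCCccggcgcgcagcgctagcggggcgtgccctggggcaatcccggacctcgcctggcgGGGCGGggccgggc
H1f0: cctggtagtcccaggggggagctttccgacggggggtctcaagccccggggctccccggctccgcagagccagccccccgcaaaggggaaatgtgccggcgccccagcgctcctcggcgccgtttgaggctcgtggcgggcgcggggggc
Gas1: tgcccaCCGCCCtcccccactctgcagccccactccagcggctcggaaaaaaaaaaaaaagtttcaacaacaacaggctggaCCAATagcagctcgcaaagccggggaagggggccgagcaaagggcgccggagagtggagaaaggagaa
Fam43a: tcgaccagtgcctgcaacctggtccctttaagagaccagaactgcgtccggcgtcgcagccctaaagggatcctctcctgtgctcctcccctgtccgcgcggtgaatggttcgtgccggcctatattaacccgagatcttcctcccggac
Hps6 carried 2 GC boxes in this stretch, Gas1 carried 1 GC box and 1 CCAAT box, and H1f0 and Fam43a carried none of the 3 motifs. Over the full windows of 300 bases, from 250 before to 50 after the start, 52 members matched by gene number, with 63 windows. A GC box was in 55.6% of these against 62.8% of 12238 windows of tested genes, a CCAAT box in 31.7% against 38.3%, and a TATA box in 3.17% against 6.86%. The median GC content was 62.7% and 60.7%. A letter match is a description and does not show binding.

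The level in Ctrl ranged from 201 to 6447 size-factor counts (median 415). In Cadict it ranged from 5.33 to 489 (median 26.1), so that 1.59% to 8.80% of the Ctrl mean was left (median 6.29%), which is a level 11.4 to 62.8 times lower (median 15.9). These are the values that chose the genes. In Cu-Cys, which the rule did not use, the members stood at 18.1% to 121% of the Ctrl mean, with a median of 77.3%.

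**Figure D1:**
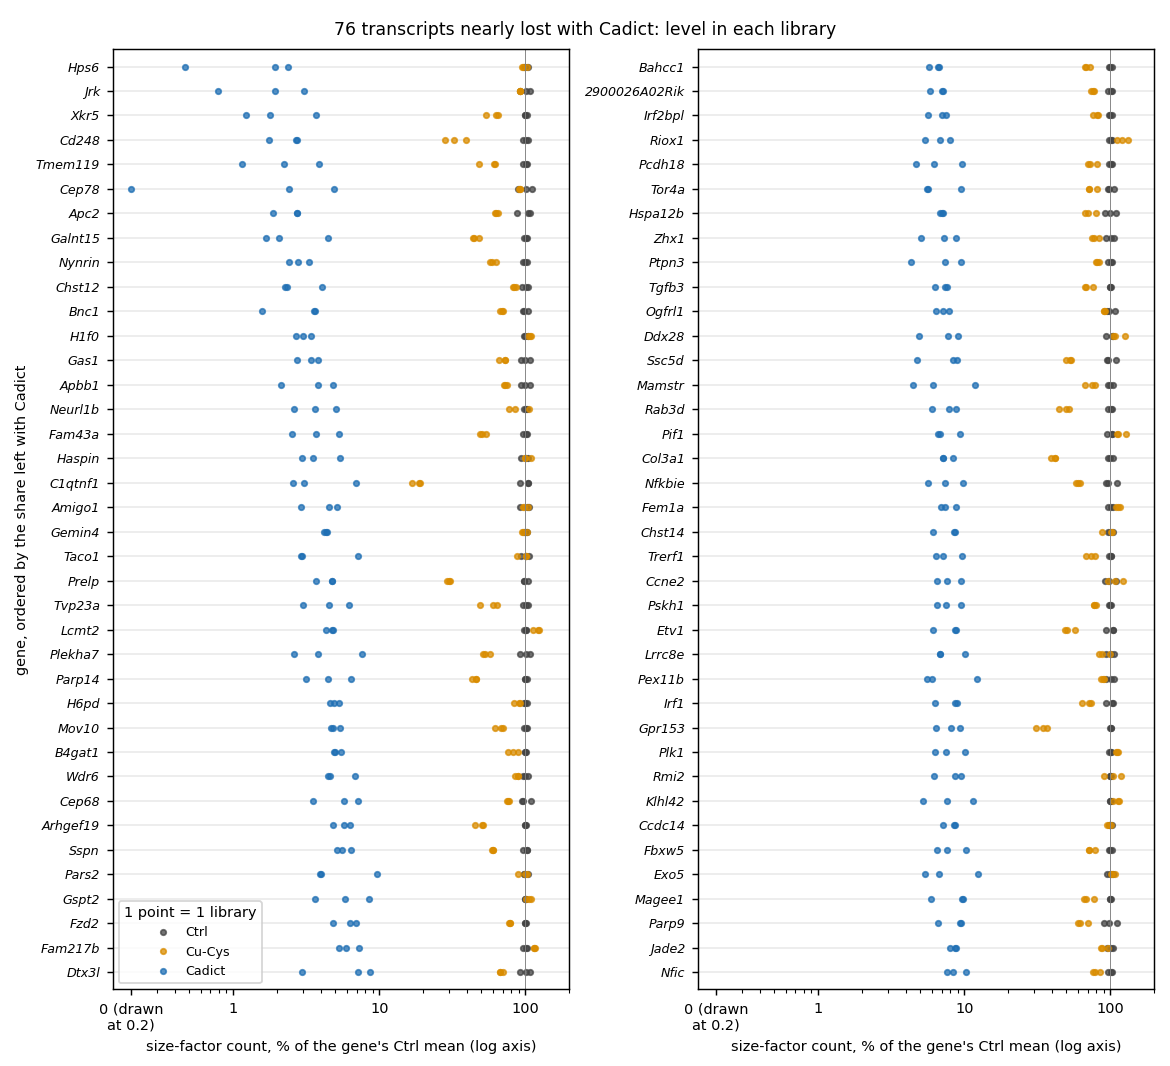
Level of each of the 76 genes in every library, as a percentage of the gene's Ctrl mean on a log axis, with 1 point per library and genes ordered by the share left with Cadict. The Cadict libraries lie far to the left by selection, whereas Cu-Cys means run from 18.1% to 121%; the only 0 is Cep78 in Cadict replicate 3.

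Hps6 had the lowest ratio. It encodes a subunit of BLOC-2, a complex that helps to build lysosome-related organelles such as melanosomes and platelet dense granules. It is a gene of 1 exon at chr19:46003508-46006173 on the + strand (GENCODE M21, GRCm38). Its size-factor counts were 325, 349 and 330 in Ctrl, 316, 320 and 342 in Cu-Cys, and 7.95, 6.48 and 1.57 in Cadict. The Cadict values rest on 5, 4 and 1 reads. Ctrl and Cu-Cys libraries overlapped, with a log2 fold change of -0.07 (SE 0.08, edgeR adjusted p = 0.504), while the rule's log2 ratio in Cadict was -5.73.

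Jrk, whose protein is related to the centromere protein CENP-B and binds nucleic acid, followed with a ratio of -5.52. Its coding sequence lies in 1 of 2 exons at chr15:74702301-74709535 on the - strand. The counts were 378, 412 and 439 in Ctrl, 374, 373 and 376 in Cu-Cys and 7.95, 3.24 and 12.6 in Cadict (5, 2 and 8 reads). The Cu-Cys values lay just below the lowest Ctrl value, and the log2 fold change of -0.16 (SE 0.08) did not pass the test (edgeR adjusted p = 0.117). It passed the adjusted p limit of 0.05 with library totals (0.0293), FPKM (0.0316) and TPM (0.0218) and without Cadict replicate 2 (0.0466). The next in order were Cd248, Xkr5, Apc2, Cep78, Tmem119 and Galnt15, with ratios from -5.30 to -5.145.

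**Figure D2:**
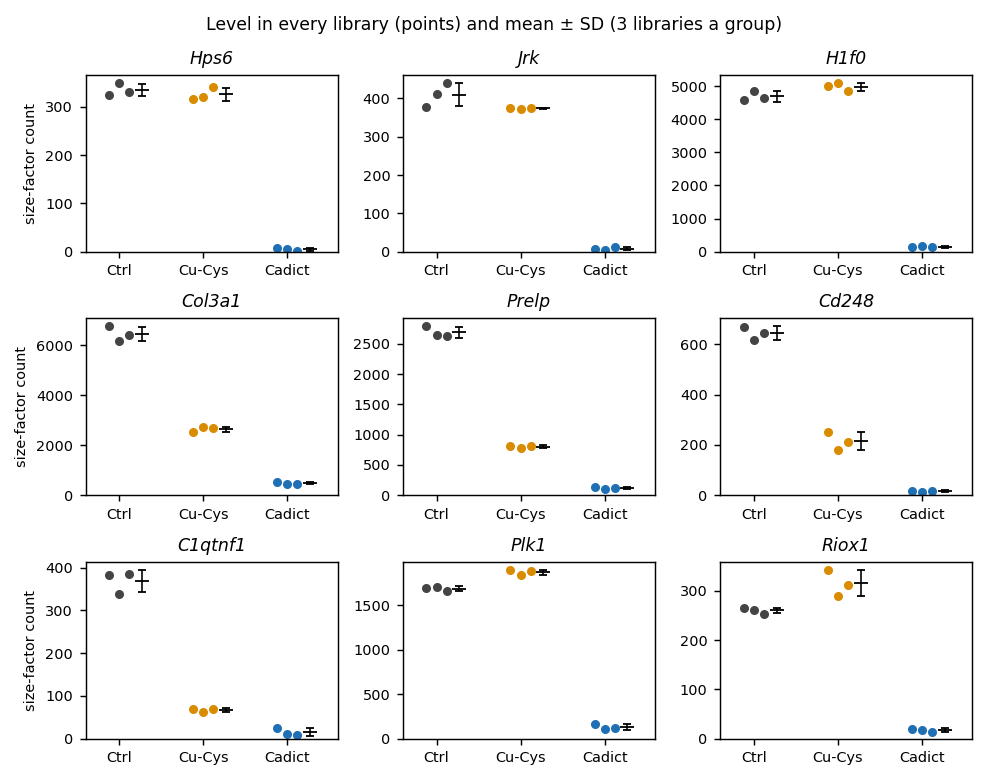
Size-factor counts of 9 members in every library (points, 3 per group) with the mean ± SD beside them, on axes that start at 0. Hps6, Jrk, H1f0, Plk1 and Riox1 stayed near or above their Ctrl level with Cu-Cys, and Col3a1, Prelp, Cd248 and C1qtnf1 stood between Ctrl and Cadict.

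In edgeR's test of Cadict against Ctrl, all 76 genes were lower at the study's threshold (fold of at least 2 and adjusted p of at most 0.001), among 27.1% of all 11949 genes tested that were lower and 20.7% that were higher. All 76 were also lower than in Cu-Cys, where 23.6% of tested genes were. Since the Cadict libraries chose the genes, neither count is read further. The median log2 fold change of the members was -4.08 against Ctrl (all genes tested -0.13) and -3.74 against Cu-Cys (all genes tested -0.10). Scaling by library totals instead moved the median of all tested genes in Cadict against Ctrl to -1.08 and that of the members to -5.03. Such a change shifts all genes alike, so the distance of -3.95 between members and all genes stays by arithmetic. In limma on log2(FPKM + 1) and log2(TPM + 1), where it can change, the distance was -2.28 and -2.53.

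In Cu-Cys against Ctrl, 9 of 76 members (11.8%) were lower at the study's threshold, where 1.47% of all tested genes were, and 0 were higher, where 0.167% were. Among the tested genes with a Ctrl mean of at least 200 the share of lower calls was 0.569%. In a looser test, with an adjusted p no higher than 0.05 and any fold, 49 members (64.5%) were lower and 3 were higher, against 22.4% and 22.6% of all tested genes. The median log2 fold change of the members was -0.40, with a range of -2.50 to 0.25, and that of all tested genes was 0.01. The 3 Cu-Cys libraries lay below all 3 Ctrl libraries in 51 members (26.5% of tested genes) and above them in 8 (35.3% of tested genes). The Ctrl libraries entered both the rule and this comparison, so the comparison is not fully independent of the choice of genes.

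The group that fell furthest with Cu-Cys was that of 15 genes for secreted, matrix and cell-surface proteins. Its median log2 fold change was -0.77, with 13 genes lower in the looser test and 5 at the study's threshold. Here and below, groups were formed by known function once the members were known. Of all tested genes, 22.4% were lower and 22.6% higher in the looser test. At the study's threshold these shares were 1.47% and 0.167%.

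C1qtnf1, a secreted protein of the C1q and TNF-related family, fell most. Its counts were 383, 338 and 384 in Ctrl, 68.4, 61.4 and 69.8 in Cu-Cys and 25.4, 11.3 and 9.42 in Cadict. The 3 groups did not overlap, and the log2 fold change with Cu-Cys was -2.50 (SE 0.12, edgeR adjusted p = 1.67e-09).

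Prelp, a small leucine-rich proteoglycan that anchors basement membranes to connective tissue, stood at 2793, 2650 and 2635 in Ctrl, 820, 782 and 806 in Cu-Cys and 129, 98.8 and 127 in Cadict. The groups were far apart in comparison with the spread inside each of them. The log2 fold change with Cu-Cys was -1.78 (SE 0.06, edgeR adjusted p = 1.06e-10).

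Col3a1, the chain of fibrillar collagen type III, was the most abundant member by size-factor count. It had 6764, 6181 and 6396 counts in Ctrl, 2524, 2713 and 2676 in Cu-Cys and 541, 462 and 465 in Cadict. With 51 exons it also has the most exons of the set. The level with Cu-Cys was 40.9% of the Ctrl mean (log2 fold change -1.32, SE 0.06, edgeR adjusted p = 1.14e-09). Of the 4 mesenchymal markers, which are no members, Col1a1, Col1a2 and Pdgfrb were lower in the looser test with both treatments, and Vim passed it with neither. Col1a2 stood at 144 to 152 FPKM in Ctrl, 76.5 to 79.0 in Cu-Cys and 15.3 to 17.3 in Cadict. FPKM is scaled by depth alone, and under the TMM scaling of the tests its log2 fold changes were smaller, at -0.85 with Cu-Cys and -2.19 with Cadict.

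Cd248 encodes endosialin, a C-type lectin of stromal cells and pericytes, and has 1 exon. Its counts were 670, 616 and 646 in Ctrl, 252, 181 and 210 in Cu-Cys and 17.5, 11.3 and 17.3 in Cadict. The log2 fold change with Cu-Cys was -1.62 (SE 0.09, edgeR adjusted p = 1.70e-08). Gpr153, an orphan receptor, was the fifth gene of this group past the study's threshold. It had 250, 255 and 253 counts in Ctrl and 93.2, 77.8 and 86.8 in Cu-Cys.

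Ssc5d, Tmem119, Sspn, Xkr5, Gas1, Tgfb3, Pcdh18 and Fzd2 were lower by less, with log2 fold changes between -0.97 and -0.38. Among these, Tgfb3 is a ligand of the TGF-beta family, Fzd2 is a Wnt receptor, Gas1 is a co-receptor for Hedgehog ligands and Sspn is a component of the dystrophin complex. Gas1 had 447, 386 and 412 counts in Ctrl, 298, 273 and 299 in Cu-Cys and 15.9, 11.3 and 14.1 in Cadict. Fzd2 kept 78.5% of its Ctrl mean with Cu-Cys and 6.05% with Cadict. The exceptions in the group were Amigo1, an adhesion protein, at 99.6% of Ctrl with Cu-Cys (edgeR adjusted p = 0.759), and Lrrc8e, a subunit of volume-regulated anion channels, at 90.0% (adjusted p = 0.107).

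The 5 enzymes that act on carbohydrates in the Golgi and endoplasmic reticulum were Galnt15, Chst12, Chst14, B4gat1 and H6pd, with a median of -0.28 and 4 lower in the looser test. Galnt15, which starts mucin-type O-glycans, was the one past the study's threshold. It had 1086, 1046 and 1068 counts in Ctrl, 469, 476 and 511 in Cu-Cys and 47.7, 17.8 and 22.0 in Cadict. In Cadict, replicate 1 stood well above the other two. The log2 fold change with Cu-Cys was -1.16 (SE 0.08, edgeR adjusted p = 1.01e-07), and limma on log2 size-factor counts did not call it (adjusted p 0.00353 with a pseudocount of 1). Chst14, a dermatan sulfotransferase with 1 exon in the transcript of longest coding sequence, kept 96.8% of its Ctrl mean with Cu-Cys (edgeR adjusted p = 0.431).

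Parp14, Parp9, Dtx3l, Irf1, Mov10 and Nfkbie form a group tied to interferon and NF-kappa-B responses. All 6 were lower with Cu-Cys in the looser test (median -0.64), and Parp14 passed the study's threshold. Parp14, Dtx3l and Parp9 are neighbours on chromosome 16. Dtx3l (chr16:35926511-35939151) and Parp9 (chr16:35938470-35972605) overlap at their starts by 0.681 kb, and the start of Parp14 (chr16:35832874-35871544, - strand) lies 55.0 kb from Dtx3l.

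The count of Parp14, a mono-ADP-ribosyltransferase, was 358, 348 and 347 in Ctrl, 162, 160 and 152 in Cu-Cys and 11.1, 22.7 and 15.7 in Cadict. Its log2 fold change with Cu-Cys was -1.18 (SE 0.08, edgeR adjusted p = 8.36e-08), and limma did not call it at a pseudocount of 0.1 or on FPKM. Irf1, the transcription factor that drives many interferon-induced genes, had 870, 793 and 881 counts in Ctrl, 609, 625 and 546 in Cu-Cys and 73.2, 76.1 and 53.4 in Cadict. Every Cu-Cys value of Irf1 was below every Ctrl value (log2 fold change -0.54, SE 0.07, edgeR adjusted p = 2.79e-05). Nfkbie, an inhibitor that retains NF-kappa-B in the cytoplasm, changed by -0.77 and Mov10, an RNA helicase that restricts retroelements, by -0.62 on the log2 scale.

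The 13 genes of chromatin and transcription had a median of -0.37 with Cu-Cys, and 10 were lower and 1 higher in the looser test, none of them past the study's threshold. H1f0, the linker histone of cells that have left the cycle, had the highest level per length of all members, with a mean of 173 FPKM in Ctrl. Its size-factor counts were 4568, 4863 and 4627 in Ctrl, 5014, 5080 and 4849 in Cu-Cys and 127, 160 and 141 in Cadict. With Cu-Cys the libraries overlapped those of Ctrl (log2 fold change 0.06, SE 0.05, edgeR adjusted p = 0.372; the sign turns with library totals, FPKM or TPM), and with Cadict 3.05% of the Ctrl mean was left.

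Nfic, a CCAAT-binding factor of the nuclear factor I family, was the last gene inside the limit, with a ratio of -3.503. It had 3865, 3942 and 3679 counts in Ctrl, 2992, 2915 and 3254 in Cu-Cys and 323, 293 and 394 in Cadict. Bahcc1, a chromatin protein, kept 69.5% with Cu-Cys and 6.33% with Cadict. Irf2bpl, a gene of 1 exon for a nuclear ubiquitin ligase, kept 79.9% and 6.71%. Etv1, an ETS factor, had the largest change of this group with Cu-Cys (log2 fold change -0.97, SE 0.09, edgeR adjusted p = 8.26e-07).

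Riox1, an oxygenase that hydroxylates a ribosomal protein, had the highest log2 fold change of the members with Cu-Cys. It had 266, 261 and 254 counts in Ctrl, 343, 291 and 312 in Cu-Cys and 20.7, 17.8 and 14.1 in Cadict. The log2 fold change with Cu-Cys was 0.25 (SE 0.08, edgeR adjusted p = 0.0191). The other two members that were higher in the looser test were Lcmt2, a tRNA wybutosine synthesis enzyme (log2 fold change 0.23, adjusted p = 0.0155), and Fam217b (0.17, adjusted p = 0.0472). These 3 calls depended on the scaling, the test and single libraries. The count was 0 with library totals, FPKM, TPM, limma on size-factor counts or a minimum of 10 counts in every library, and 5 with DESeq2 size factors. It was also 0 without Ctrl replicate 2 or without Cu-Cys replicate 1, 1 without Ctrl replicate 3 and 6 without Cadict replicate 2.

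The 9 genes of the cell cycle, the centrosome and DNA repair had the smallest median change of the groups with Cu-Cys, at a log2 fold change of 0.02. In the looser test 1 of them, Cep68, was lower and 0 were higher, beside 22.4% and 22.6% of all tested genes. Plk1, the mitotic kinase, had 1689, 1708 and 1655 counts in Ctrl, 1890, 1834 and 1879 in Cu-Cys and 170, 107 and 126 in Cadict. The Cu-Cys libraries were all above the Ctrl libraries, but the log2 fold change of 0.12 (SE 0.07) did not pass the test (edgeR adjusted p = 0.153), and its sign turns with TPM. It was below the adjusted p limit of 0.05 in DESeq2's Wald test (0.0293) and without Cadict replicate 2 (0.0205). Ccne2, a cyclin of the G1 to S transition, kept 109% with Cu-Cys and 7.84% with Cadict. Haspin, a kinase of mitotic histone H3 encoded in 1 exon, kept 102% and 3.97%, and Pif1, a DNA helicase, kept 117% and 7.57%.

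Cep78, a centriole protein, had the widest relative spread of the members in Cadict. Its counts were 293, 331 and 363 in Ctrl, 304, 300 and 295 in Cu-Cys and 7.95, 16.2 and 0 in Cadict. Its reads in Cadict were 5, 10 and 0, and the 0 allows up to 3 reads.

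The 7 genes of RNA processing, tRNA modification and translation had a median of -0.06 with Cu-Cys. In the looser test 1 was lower (Wdr6) and 1 higher (Lcmt2), beside 22.4% and 22.6% of all tested genes. Wdr6, which acts in tRNA methylation, had 1581, 1477 and 1531 counts in Ctrl, 1371, 1303 and 1365 in Cu-Cys and 70.0, 68.0 and 105 in Cadict. Gemin4, a component of the SMN complex, kept 97.8% with Cu-Cys and 4.31% with Cadict. Ddx28, a helicase of mitochondrial ribosome assembly, kept 113% and 7.25%, and Gspt2, a translation termination factor, kept 105% and 6.01%. Taco1 and Pars2, which serve mitochondrial translation, kept 96.2% and 97.1% with Cu-Cys.

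The 15 genes of organelles, trafficking, ubiquitin and signalling, Hps6 among them, had a median of -0.45 with 10 lower in the looser test. Arhgef19, a guanine nucleotide exchange factor, and Rab3d, a GTPase of regulated secretion, passed the study's threshold with log2 fold changes of -1.05 and -1.06 (SE 0.08 for each, edgeR adjusted p = 1.06e-07 and 1.42e-07). On log2(FPKM + 1) both fell short of the fold limit (-0.94 and -0.96), as did Arhgef19 without Cu-Cys replicate 2 (-0.997). Apc2, a relative of the tumour suppressor Apc, had 372, 363 and 304 counts in Ctrl, 218, 216 and 226 in Cu-Cys and 9.54, 6.48 and 9.42 in Cadict. Klhl42 and Fbxw5, substrate adaptors of cullin ubiquitin ligases, kept 110% and 73.8% with Cu-Cys. Fem1a, another such adaptor with 1 exon, had 630, 612 and 581 counts in Ctrl, 704, 684 and 669 in Cu-Cys and 44.5, 53.4 and 42.4 in Cadict (log2 fold change with Cu-Cys 0.14, edgeR adjusted p = 0.0596).

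The 6 remaining genes had a median of -0.48 with Cu-Cys and 4 of them were lower. Fam43a, of 1 exon, had 768, 753 and 713 counts in Ctrl, 401, 377 and 366 in Cu-Cys and 39.8, 27.5 and 18.8 in Cadict, and stood just short of the fold limit (log2 fold change -0.995, edgeR adjusted p = 1.82e-07). The gene 2900026A02Rik kept 75.5% with Cu-Cys and 6.69% with Cadict, and Magee1 kept 70.8% and 8.44%.

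**Figure D3:**
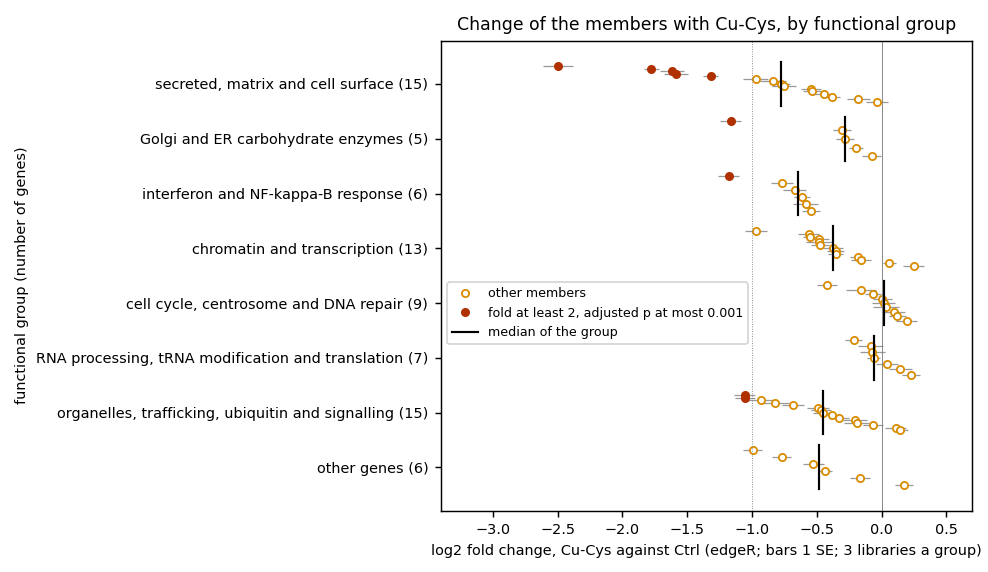
The log2 fold change of each member in Cu-Cys against Ctrl (edgeR, 3 libraries a group, bars 1 SE) by functional group, with filled points for the 9 genes past the study's threshold and a black line at the group's median. The medians run from -0.77 for secreted, matrix and surface proteins to 0.02 for the cell cycle group.

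Gene structure was a feature that the rule did not use, and the members included many genes with few exons. Structures were read from GENCODE M21 (GRCm38), from the transcript with the longest coding sequence, for 75 of 76 members and 11672 tested genes. Of the members, 15 (20%) consisted of 1 exon, against 2.005% of tested genes. The whole coding sequence lay in 1 exon in 23 members (30.7%, against 5.18%) and in at most 2 exons in 30 (40.0%, against 9.91%). The members of 1 exon were Cd248, Chst14, Ddx28, Fam43a, Fem1a, Fzd2, Gas1, Gspt2, H1f0, Haspin, Hps6, Irf2bpl, Lcmt2, Magee1 and Riox1. Among these, Chst14 and Lcmt2 also have annotated coding transcripts of more than 1 exon. Their functions range from a linker histone to a Wnt receptor, a dermatan sulfotransferase and a tRNA enzyme.

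The median member had 5 exons and 7513 bases of intron, and the median tested gene had 9 exons and 18888 bases of intron. Transcripts of members were not short, at a median of 3550 bases against 2993. Their GC content was 54.4% against 50.5%. The pentamer ATTTA, a core of AU-rich elements that shorten mRNA lifetimes, was found in the 3′ UTR of 60.0% of members and 65.4% of tested genes. At the other end of the set were Col3a1 with 51 exons and Plekha7, Bahcc1 and Ptpn3 with 27, 28 and 26.

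By number of coding exons, members made up 7.59% of the genes at the control level of the rule with 1 coding exon (23 of 303), 2.50% of those with 2 (7 of 280), 0.851% of those with 3 to 5, 0.599% of those with 6 to 10 and 0.451% of those with 11 or more. For all 605 tested genes with 1 coding exon, members included, the median log2 fold change in Cadict against Ctrl was -0.95, and 46.3% were lower at the study's threshold. With 2 coding exons the median was -0.62 and 41.7% were lower. The values were 0.007 and 25.8% with 3 to 5 coding exons, and 0.066 and 23.3% with 6 to 10. Among the 4654 genes with 11 or more coding exons, the median was -0.22 and 26.8% were lower, where 27.1% of all tested genes were.

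With Cu-Cys the 23 members with 1 coding exon had a median log2 fold change of -0.08 and the 52 with more had -0.48. Of the 23, 10 were lower and 2 higher in the looser test, and of the 52, 38 were lower and 1 was higher. Among all tested genes, 22.4% were lower and 22.6% higher in that test. Of all 605 tested genes with 1 coding exon, 112 were lower and 122 higher, and of 11067 with more, 2527 and 2556. The 605 tested genes with 1 coding exon had a median of 0.02 in this comparison. Cd248 was the member with 1 coding exon that passed the study's threshold with Cu-Cys. No test of the difference between these classes was made.

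**Figure D4:**
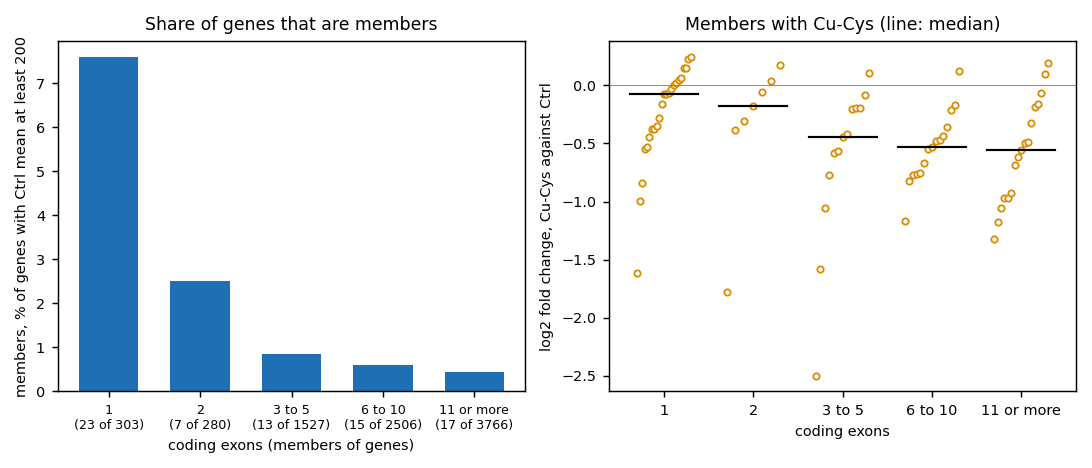
Left, members as a percentage of the genes with a Ctrl mean of at least 200, by number of coding exons (members and genes in brackets); the bars fall from 7.59% to 0.451%. Right, the log2 fold change of members in Cu-Cys against Ctrl in the same classes, with 1 circle per gene and a line at the median, from -0.08 at 1 coding exon to -0.55 at 11 or more.

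The related genes of the 2 leading members were read from lists of complexes and families. Of 13 subunits of the BLOC complexes, 5 were lower and 2 higher in Cadict against Ctrl at the study's threshold, where 27.1% of all tested genes were lower and 20.7% higher. Hps6 is among these 5, and the rule had fixed its call in advance. The other two BLOC-2 subunits had log2 fold changes of -2.01 (Hps3) and 0.23 (Hps5). Of 8 tested genes for CENPB and pogo-derived DNA-binding proteins, 6 were lower and 0 higher. Jrk belongs to this list and is among the 6, again with a call fixed by the rule. Tigd2 had -3.30, Cenpb -3.18 and Jrkl -2.05. In Cu-Cys, 0 of these 8 genes were lower and 1 was higher in the looser test, and of the 13 BLOC genes 2 were lower and 2 higher, where 22.4% of all tested genes were lower and 22.6% higher.

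Larger families were read in the same way in Cadict against Ctrl, beside the 27.1% of all tested genes that were lower and the 20.7% that were higher. Of 45 BTB-Kelch and KCTD adaptors tested, 21 were lower and 4 higher, with the member Klhl42 among the lower. Of 55 F-box proteins, 22 were lower and 8 higher, with the member Fbxw5 among the lower. BTB zinc finger factors (18 lower and 5 higher of 40) and forkhead and SOX factors (13 lower and 4 higher of 30) held no member, nor did 23 signalling feedback regulators, of which 3 were lower and 6 higher. Of 199 tested genes whose annotated transcripts all consist of 1 exon, 96 were lower and 33 higher, and the 13 members in this list are among the 96. The rule chose members for low Cadict values, so their part in these counts was fixed in advance.

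In Ctrl and Cu-Cys, replicates of the members spread slightly more than those of other genes. The median coefficient of variation was 3.64% in Ctrl and 4.91% in Cu-Cys, against 3.23% and 4.14% for genes at the same control level. In Cadict it was 23.4% against 8.10%, at a median of 14.5 to 17 reads per member and library. The highest value among the 3 Cadict libraries came from replicate 1 in 28 members, from replicate 2 in 27 and from replicate 3 in 21. The order of members within Cadict is therefore weakly resolved, and neighbours such as Cd248, Xkr5 and Apc2 (ratios -5.30, -5.26 and -5.20) do not differ beyond their spread.

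The edge of the set is not a gap. Just inside the ratio limit were Nfic (-3.503), Magee1 (-3.52) and Parp9 (-3.53), and just outside were Cbln1, Zfp395 and Ckap2l, each at -3.47 or -3.46. Just inside the level limit stood Pars2, Rmi2 and Tvp23a with Ctrl means of 201, 203 and 209, and just outside stood Cacna1a, Emilin1 and Zfp518b with 193, 191 and 171. These neighbours were ranked by value alone, and Zfp395 and Zfp518b would also have been left out by name.

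The assignment of reads was checked for genes with shared sequence. Of 75 members, 55 had no stretch of 50 bases in common with an annotated transcript of another gene, and 5 shared over 10% of such stretches, so that their levels are uncertain. Among these were B4gat1 (96.7%, with an overlapping transcript on the same strand), Gemin4 (94.6%, with transcripts of its neighbour Glod4), Etv1 (18.7%) and Zhx1 (10.1%). Under exons of a gene on the opposite strand lay over 10% of the length of 10 members, among them C1qtnf1 (25.4%), Riox1 (31.9%) and Gas1 (16.8%). The sources used here do not state whether counting used strand.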

How the data were processed

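RNA-seq of MC38 cells comprised 9 libraries, with 3 each of Ctrl, Cu-Cys and Cadict cells. The authors deposited 1 table with, per gene and library, an expected count (an estimated read count, 90.2% of them whole numbers), FPKM, TPM and a signal value, which is a count divided by 1 size factor per library. Per the submitters' processing notes, HISAT2 2.1.0, Bowtie2 2.3.4.3 and RSEM 1.3.1 were used, with GRCm39 and GRCh38.p13 named as builds. The labels name a column kit and DNA nanoball sequencing, whereas the study's methods name another extraction and instrument. The 12 deposited columns of group averages were not used. The column names CTL and CC were matched to Ctrl and Cu-Cys, and CCGE to Cadict by inference.

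The rule was applied to the size-factor counts. The members, gene lists and functional groups were chosen with earlier results of these data known. Expected counts were rounded and fitted in R 4.3.3 with edgeR 4.0.16 (filterByExpr, TMM, 1 quasi-likelihood model of 3 groups, Benjamini-Hochberg over 11949 genes), with genes called at the study's limits (fold 2, adjusted p 0.001). Each SE was derived as the absolute log2 fold change divided by the square root of the test's F statistic. The procedure was tested on simulated data. The size-factor counts gave whole reads (tolerance 0.01) for all values when multiplied back. Correlations of same-numbered replicates ran from -0.19 to 0.154, so numbers were not treated as pairs. Intervals and the limit of 3 reads behind a count of 0 cover counting error only.

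Genes named one by one were Hps6 and Jrk, the 8 members with the highest Ctrl level and the 8 with the lowest ratio. They also included the 6 members with the lowest and the 6 with the highest log2 fold change in Cu-Cys against Ctrl. The 3 genes on either side of the ratio limit and up to 3 from each list were named too. The others are named by functional group and were chosen after their values were seen. Gene structures came from GENCODE M21 on GRCm38 and promoters from RefSeq on GRCm38.p6, which is not the build named for the files. DESeq2 1.42.0, limma 3.58.1, other scalings, filters, units, pseudocounts and leaving out each library were the alternatives.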

Additional observations from a re-analysis of the deposited data

How the results depend on the processing

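The 9 members called lower with Cu-Cys at the study's threshold became 6 to 12 under the other scalings, filters, units and tests, and the 49 lower in the looser test became 34 to 54. Leaving out 1 library at a time gave 9 to 11 and 47 to 52. edgeR on whole reads recovered from the size-factor counts, an alternative added after seeing the data, gave 9 and 49. With a replicate block the counts were 9 and 49 and the medians moved by less than the spread between replicates; same-numbered libraries are not known to be pairs, and their correlations did not all exceed 0.1.

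The medians moved by more than the spread between replicates under several settings, always with the same sign. In Cu-Cys against Ctrl the median of -0.40 became -0.37 with DESeq2 size factors, with DESeq2's Wald test and in limma on size-factor counts with either pseudocount, -0.47 with library totals, -0.44 on FPKM and -0.52 on TPM, and lay between -0.42 and -0.38 without single libraries. In Cadict against Ctrl the median of -4.08 became -3.96 with DESeq2 size factors, the Wald test, limma with a pseudocount of 1 and a minimum of 10 counts in every library, -4.002 with a pseudocount of 0.1, -4.16 without a filter, -5.03 with library totals, -3.06 on FPKM and -3.66 on TPM, and -4.16 to -4.01 without single libraries. Against Cu-Cys the median of -3.74 became -3.65 with DESeq2 size factors or the Wald test, -3.66 in limma with a pseudocount of 1, -3.60 with at least 10 counts, -3.83 without a filter, -4.62 with library totals, -2.64 on FPKM and -3.17 on TPM, and -3.80 to -3.72 without single libraries. A pseudocount of 1 is large beside the FPKM and TPM left with Cadict. A minimum of 10 counts in every library leaves 47 of 76 members.

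The rule itself gave 362 genes on library totals, 156 at a limit of -3, 34 at -4 and 40 at a Ctrl mean of at least 400, and 72 to 77 without single libraries. The changed sign of small differences with Cu-Cys concerned H1f0 (-0.0102 with library totals, -0.0128 on FPKM and -0.085 on TPM) and, on TPM, Plk1 (-0.0237), Ddx28 (-0.0023), Fam217b (-0.0176) and Klhl42 (-0.0331). Of the 9 members, Galnt15 was lost in limma on size-factor counts with either pseudocount, Parp14 with a pseudocount of 0.1 and on FPKM, Rab3d on FPKM, and Arhgef19 on FPKM and without Cu-Cys replicate 2. With at least 10 counts in every library, C1qtnf1, Cd248 and Parp14 were not tested. The causes were not tested. The share of members with all coding sequence in 1 exon was 32% when the longest transcript of each gene was taken.

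The median of 14.5 to 17 reads per member and Cadict library limits how well members can be ranked, and the design has no dose or time that would separate them further.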

Other observations

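The 5 genes that met both limits and were left out by name were Exosc6 (ratio -7.11), Klf2 (-5.78), Zfp41 (-4.85), Zfp386 (-3.84) and Zfp318 (-3.82). Exosc6, a subunit of the RNA exosome, fell below every member, from a mean of 361 size-factor counts in Ctrl and 488 in Cu-Cys to 1.62 in Cadict. Klf2, a Krüppel-like transcription factor, went from 2330 in Ctrl and 1900 in Cu-Cys to 41.4 in Cadict.

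Members were spread over 19 chromosomes. Besides the Parp14, Dtx3l and Parp9 neighbourhood, B4gat1 and Cd248 lay 26.9 kb apart on chromosome 19, and Pskh1 and Ddx28 lay 77.8 kb apart on chromosome 8. With Cu-Cys the pairs differed: B4gat1 kept 82.4% and Cd248 33.3%, while Pskh1 kept 78.3% and Ddx28 113%.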
